A study of Rattus norvegicus with 4 samples.

Results

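The insulin-like growth factor (IGF) axis and the kinase Akt were followed in the left ventricle of the rat over 4 oligonucleotide arrays. The genes were Igf1, Igf2, Igf1r, Igfbp2, Igfbp3, Igfbp4, Igfbp5, Igfbp6, Akt1 and Akt2, chosen by name, and every probe set whose platform annotation gives 1 of these symbols was taken. A probe set is a group of short oligonucleotides on the array that together give 1 intensity. Whether each reads a single transcript was not tested. This gave 26 of 7006 probe sets with a single gene symbol, and 9 of 4736 genes. No named probe set paired with Igfbp4, which was not analysed here.

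The 4 arrays stood for terminal heart failure, dTGR treated with losartan, untreated dTGR and a Sprague Dawley control (SD control). dTGR are double transgenic rats that overexpress human renin together with human angiotensinogen, become hypertensive and develop an enlarged heart. Losartan blocks the type 1 receptor of angiotensin II. No genotype is named for the terminal sample, although the notes on the transgenic rat are repeated for each of the 4 samples, so whether the terminal ventricle came from a dTGR is not stated. The sources used here give no dose, no age, no number of animals behind an array and no word on pooling.

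IGF1 is a peptide hormone of the liver that cardiac cells also make, and IGF2 is its relative of fetal life. Both act through the receptor tyrosine kinase encoded by Igf1r, which recruits docking proteins and phosphoinositide 3-kinase and so activates Akt. The IGF binding proteins hold the ligands in blood and tissue, can block or prolong their action, and are released by proteases. In the heart the pathway is known for physiological growth, cell survival and glucose uptake.

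There was 1 array per group and no replicate, so differences are sizes with no test and no p-value, and their precision is limited by having so few arrays. Each array was scaled to the same trimmed mean, and intensities under 26.0, the 40th percentile of all values, were set to that floor before log2 was taken. To count as higher or lower, a probe set had to exceed the floor on 1 or both arrays compared and to differ 2-fold or more. Where 1 of the arrays lay under the floor the fold is a bound, written "at least". Of the 26 probe sets, 13 lay above the floor on all 4 arrays, 9 on some and 4 on none (D00698_s_at of Igf1, X16703_i_at of Igf2, A09811cds_s_at of Igfbp2 and rc_AI070577_at of Igfbp5). Probe sets of 1 gene differ in affinity, so their levels are not set against each other. Those that share a GenBank record in their name, such as M15481_at and M15481_g_at, read the same sequence and are not independent.

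Between probe sets of the same gene, over all genes with several, log2 differences had an SD of 0.51 to 0.60 in the 6 comparisons, which is the only measure of error here and covers no animals. The terminal and losartan arrays shared a chip lot, as did the dTGR and SD control arrays. The terminal array had its own run day, and a different fluidics protocol was used for the dTGR array. Its instrument record gives 0 cycles for both washes and 0 s for the first stain. The other arrays had 10 and 4 cycles and 600 s. On the dTGR array 63.5% of probe sets were above the floor, against 58.2% to 59.1% on the others. Its brightest value was 49747.2, against 28462.6 on the losartan array, the next highest. The part of the protocol in the dTGR intensities was not tested. The ratio of 3′ to 5′ signal of Gapdh was 1.28, 2.17, 1.73 and 1.34 for terminal heart failure, losartan-treated dTGR, dTGR and SD control. Of 12 cardiomyocyte markers 10 had a probe set, and all 10 were above the floor on every array. Their summed intensity was 96991, 136428, 199758 and 103148 in the same order. Actc1 and Myl2 were the brightest of the 10 on every array, and single markers differed. In dTGR against SD control the median of the 10 was 0.91 on the log2 scale, against 0.03 over all genes. Pln, Ryr2 and Actn2 differed there by only -0.19, 0.04 and 0.05. In bulk tissue, fewer cells of a type and less RNA per cell cannot be told apart.

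**Figure D1:**
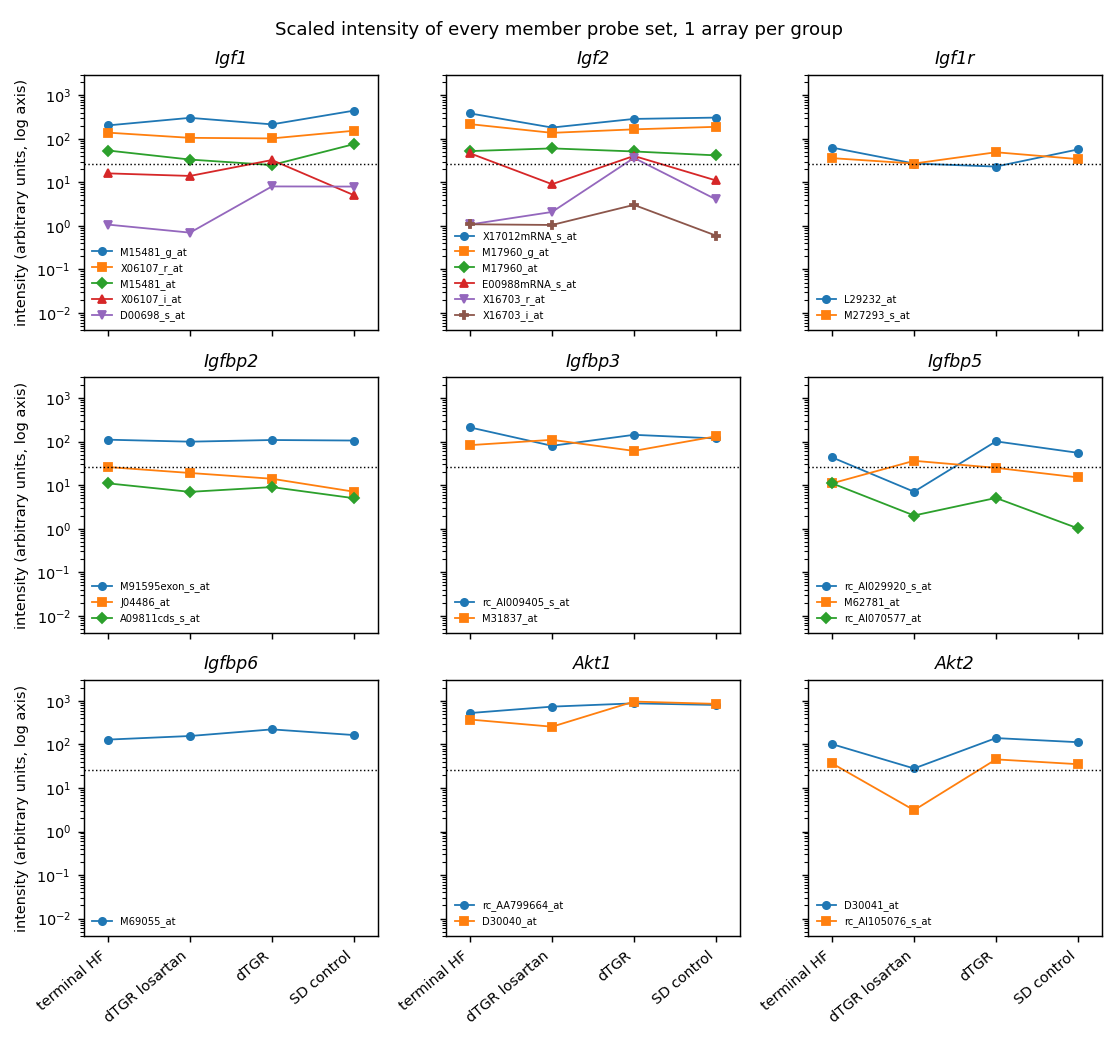
Scaled intensity (arbitrary units, log axis) of the 26 probe sets, 1 panel per gene, on the arrays of terminal heart failure, losartan-treated dTGR, dTGR and SD control, with points for single arrays, lines that only join points of 1 probe set, and a dotted line at the floor of 26.0. The Igf1 probe set M15481_g_at is highest in SD control, and both Akt2 probe sets are lowest on the losartan array.

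Igf1, the main growth factor of the axis, was highest in SD control by its 3 brightest probe sets, except that X06107_r_at in terminal heart failure lay just above SD control after cyclic loess (by 0.01 on the log2 scale). M15481_g_at, its brightest probe set, had intensities of 203.7 in terminal heart failure, 303.6 in losartan-treated dTGR and 214.9 in dTGR, against 444.1 in SD control. SD control was thus the highest, the losartan array stood between, and the untreated disease arrays were nearly equal. The difference was -1.12 on the log2 scale (2.18-fold lower) for terminal heart failure, -0.55 (1.46-fold lower) for losartan-treated dTGR and -1.05 (2.07-fold lower) for dTGR.

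Another probe set built on the same record, M15481_at, read 53.9, 33.4 and 25.02 in terminal heart failure, losartan-treated dTGR and dTGR, against 75.4 in SD control. It was 1.40-fold lower in terminal heart failure, 2.26-fold lower in losartan-treated dTGR and at least 2.90-fold lower in dTGR. X06107_r_at, from a different record, read 138.7, 105.4 and 102.3, against 153.4 in SD control, and was 1.11-fold, 1.46-fold and 1.5-fold lower in terminal heart failure, losartan-treated dTGR and dTGR. All 3 probe sets thus had SD control as the highest array. They did not share an order among the other 3 arrays. M15481_at and X06107_r_at put dTGR lowest, and M15481_g_at had terminal heart failure and dTGR close together. X06107_i_at was above the floor on the dTGR array only (32.6), and its bound of at least 1.25-fold higher than SD control went the other way.

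The dTGR and SD control arrays came from 1 chip lot, so this Igf1 difference lies within a lot, but between fluidics protocols. After quantile normalization and cyclic loess, the M15481_g_at difference between dTGR and SD control was -0.97 and -0.89, just short of 2-fold. Macrophages and fibroblasts are among the cells that make IGF1. Of the listed fibroblast markers, 10 of 10 had a probe set, with summed intensities of 23324, 23058, 24052 and 22606 in terminal heart failure, losartan-treated dTGR, dTGR and SD control. Dcn and Sparc carry most of that sum, and single markers differed. In terminal heart failure against SD control, 3 of 10 were lower by 2-fold, in the direction of Igf1, and 1 higher (14.8% of all genes in either direction). Col1a1, Col3a1 and Lum were lower, by 2.15-fold, 4.02-fold and 3.18-fold, and Postn was at least 3.99-fold higher. The median of the 10 was -0.26 on the log2 scale, against -0.14 over all genes. In dTGR against SD control, 1 of 10 was lower and 1 higher (13.6% of all genes in either direction). They were Col1a1, 2.13-fold lower, and Postn, at least 2.41-fold higher. Of the 12 macrophage markers, 10 had a probe set, with sums of 4851, 3469, 3637 and 2904, and Csf1r and Itgam were under the floor everywhere. In terminal heart failure against SD control, 3 of 7 macrophage markers that could be counted were higher by 2-fold and 1 lower. Of all genes, 14.8% passed 2-fold in either direction. The median of the 7 was 0.97 on the log2 scale, against -0.14 over all genes. Lyz2 was 3.64-fold higher, and Cd74 was the marker that was lower, by 2.30-fold. The part of either cell type in the Igf1 difference was not tested.

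The probe sets of Igf2 that lay above the floor on all 4 arrays differed less than 2-fold from SD control, and those under the floor in SD control gave bounds only. X17012mRNA_s_at read 383.6 in terminal heart failure, 181.6 in losartan-treated dTGR and 286.7 in dTGR, against 307.4 in SD control. M17960_g_at read 217.3, 137.3 and 165.2, against 188.7 in SD control. On both the terminal array was highest and the losartan array lowest. Terminal heart failure exceeded losartan-treated dTGR 2.11-fold on the first and 1.58-fold on the second, and these arrays share a chip lot. The weaker M17960_at went the other way in that pair, at 52.3 in terminal heart failure and 60.3 in losartan-treated dTGR. E00988mRNA_s_at was above the floor only on the untreated disease arrays, at 46.4 in terminal heart failure and 40.5 in dTGR, at least 1.78-fold and 1.56-fold higher than in SD control. X16703_r_at was above the floor on the dTGR array alone (36.5). With the floor lowered to the 25th percentile these bounds passed 2-fold, at 2.06 and 1.87 on the log2 scale for E00988mRNA_s_at and 1.73 for X16703_r_at in dTGR.

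Igf1r, the receptor that carries the signal of both ligands, lay close to the floor, and its probe sets disagreed. L29232_at read 62.9 in terminal heart failure, 27.1 in losartan-treated dTGR and 23.1 in dTGR, against 57.0 in SD control. It split the arrays into a higher pair, terminal heart failure and SD control, and a lower pair, both dTGR arrays. In losartan-treated dTGR it was 2.10-fold lower than in SD control, and in dTGR at least 2.19-fold lower. M27293_s_at read 36.0, 27.1 and 49.2, against 34.3 in SD control, and was 1.43-fold higher in dTGR. The direction in dTGR was therefore not settled. Both probe sets were lower in losartan-treated dTGR than in SD control (2.10-fold and 1.27-fold) and higher in terminal heart failure than in losartan-treated dTGR (2.32-fold and 1.33-fold).

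Among the binding proteins, Igfbp2, which is abundant in fetal life and in fasting, was the steadiest of the axis by its brightest probe set. This probe set, M91595exon_s_at, read 110.8 in terminal heart failure, 99.8 in losartan-treated dTGR and 109.0 in dTGR, against 106.0 in SD control, a span of 1.11-fold. J04486_at reached the floor only in terminal heart failure (26.1). Its difference there from SD control was up to 1.24 on the log2 scale under other settings, so steadiness of the gene is not shown.

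Igfbp3, the main carrier of IGF in blood, was read in opposite ways by its probe sets. The probe set rc_AI009405_s_at had 211.8 in terminal heart failure, 80.2 in losartan-treated dTGR and 143.5 in dTGR, against 118.4 in SD control. It was highest in terminal heart failure, where it was 1.79-fold above SD control and 2.64-fold above losartan-treated dTGR. M31837_at had 83.1, 110.1 and 61.3, against 132.2 in SD control. It was highest in SD control, with dTGR 2.16-fold lower and terminal heart failure 1.59-fold lower. The only comparisons in which both probe sets had 1 direction were terminal heart failure against dTGR, with 1.48-fold and 1.36-fold higher values, and losartan-treated dTGR against SD control, with 1.48-fold and 1.20-fold lower values.

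Igfbp5, a binding protein that attaches to extracellular matrix, differed most between dTGR and losartan-treated dTGR. Its brightest probe set, rc_AI029920_s_at, read 43.4 in terminal heart failure, 7.07 in losartan-treated dTGR and 101.5 in dTGR, against 55.4 in SD control. The dTGR array was the highest and the losartan array lay under the floor. dTGR was 1.83-fold higher than SD control, terminal heart failure was 2.34-fold lower than dTGR, and losartan-treated dTGR was at least 3.90-fold lower than dTGR and at least 2.13-fold lower than SD control. M62781_at was above the floor on the losartan array alone (36.3), at least 1.40-fold higher there than in dTGR or SD control, against the direction of the first. The terminal difference was -0.96 after cyclic loess and -0.93 with arrays scaled to the same median.

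Igfbp6, which binds IGF2 in preference to IGF1, had a single probe set, M69055_at. It read 129.2 in terminal heart failure, 156.3 in losartan-treated dTGR and 221.7 in dTGR, against 164.3 in SD control. dTGR was the highest, 1.35-fold above SD control, and terminal heart failure the lowest, 1.72-fold under dTGR and 1.27-fold under SD control.

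**Figure D2:**
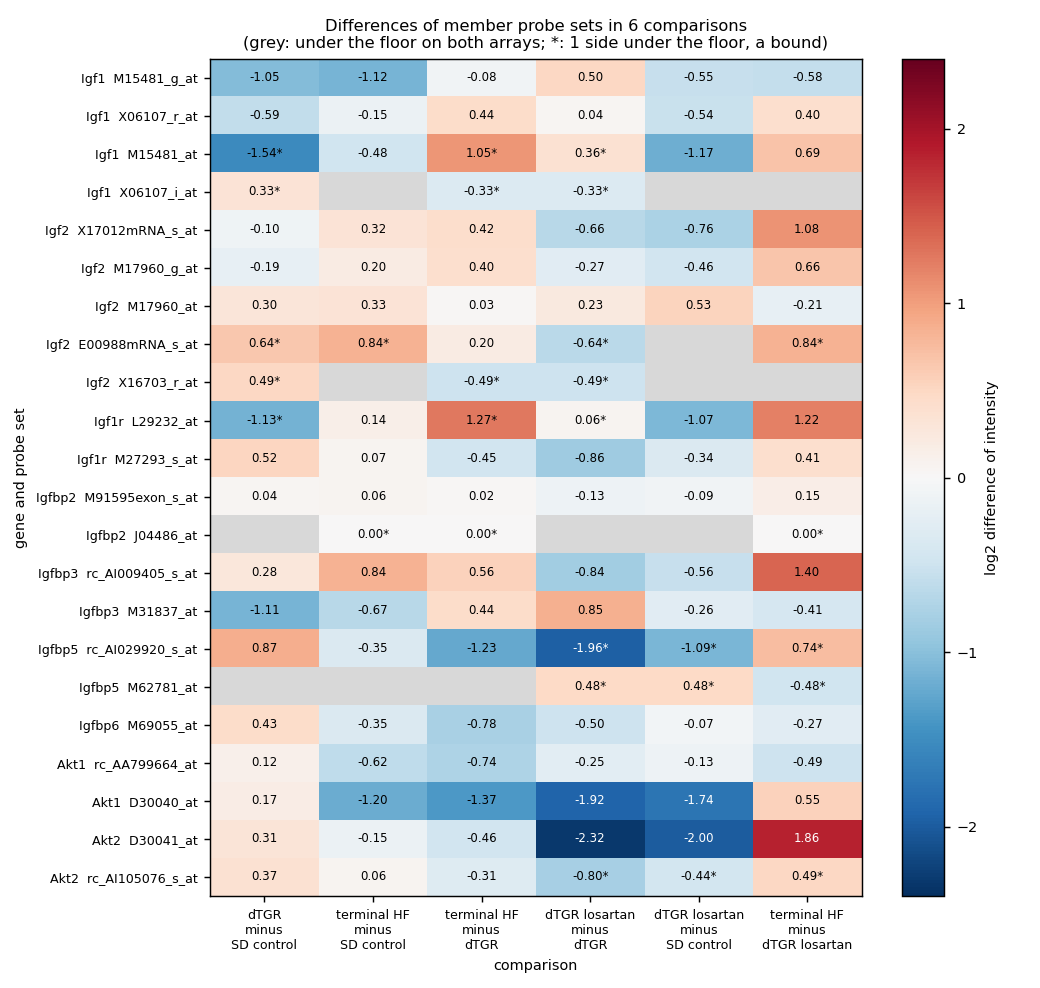
Log2 differences of intensity for the 22 probe sets above the floor on at least 1 array (down the page, by gene) in 6 comparisons (across), each the first array minus the second, with blue for lower and red for higher on the first array, grey for probe sets under the floor on both, and an asterisk for a bound. The darkest blue cells are Akt2 D30041_at on the losartan array, at -2.32 against dTGR and -2.00 against SD control.

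Akt1 and Akt2 encode kinases downstream of the receptor. Akt1 is the form tied to heart growth and survival, and Akt2 the form tied to insulin-stimulated glucose uptake. Akt1 by 1 of its 2 probe sets and Akt2 by both had their lowest value on the losartan array, and the proximal promoters of this pair are shown for that reason. The trait is not particular to them. Igf2, Igfbp2, Igfbp3 and Igfbp5 were also lowest on that array by their brightest probe sets, and their promoters are not shown. The 100 bases that end just before the RefSeq transcription start (build GRCr8) are given 5′ to 3′. They lie at chr6:137552611-137552710 on the minus strand for Akt1 and at chr1:92021817-92021916 on the plus strand for Akt2. Capitals mark the motif TATAAA read on either strand.
Akt1: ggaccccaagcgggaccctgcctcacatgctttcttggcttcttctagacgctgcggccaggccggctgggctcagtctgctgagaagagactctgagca
Akt2: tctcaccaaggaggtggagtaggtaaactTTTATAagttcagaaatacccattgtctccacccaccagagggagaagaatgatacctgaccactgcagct
Over 250 bases before the start, Akt2 held 1 TATAAA, 71 bases before the start, and Akt1 held 0. That motif was in 12.9% of 33469 promoters. Neither held CCAAT (in 34% of promoters) or GGGCGG (in 30.5%), each searched on both strands. The GC content of these 250 bases was 54.8% for Akt1 and 48.4% for Akt2, with a median of 51.2% over all promoters. The promoters share none of the 3 motifs.

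Akt1 D30040_at read 373.3 in terminal heart failure, 255.5 in losartan-treated dTGR and 965.0 in dTGR, against 855.8 in SD control. The terminal and losartan arrays were low, and the dTGR and SD control arrays were high and nearly equal. Against SD control the log2 difference was -1.20 (2.29-fold lower) for terminal heart failure and -1.74 (3.35-fold lower) for losartan-treated dTGR. Against dTGR it was -1.37 (2.59-fold lower) and -1.92 (3.78-fold lower).

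The low pair is also the pair of 1 chip lot. Over 5344 probe sets above the floor on at least 1 array, 37 (0.692%) had both arrays of 1 lot at least 2-fold beyond both of the other, against 74 (1.38%) for terminal heart failure and dTGR beyond the other pair, and 22 (0.412%) for the remaining pairing. For D30040_at chip lot and group cannot be told apart. The other Akt1 probe set, rc_AA799664_at, read 526.8 in terminal heart failure, 738.7 in losartan-treated dTGR and 878.7 in dTGR, against 807.3 in SD control. It agreed that terminal heart failure was lower, by 1.53-fold against SD control and 1.67-fold against dTGR. For losartan-treated dTGR it gave differences of only -0.13 against SD control and -0.25 against dTGR. A lower Akt1 in terminal heart failure was thus read by both probe sets, and the larger difference on the losartan array by 1 of them. The rc_AA799664_at difference from SD control (-0.62) was short of 2-fold and not far above the SD between probe sets (0.51). Of all probe sets above the floor on both arrays, 58.9% were lower in terminal heart failure than in SD control. The terminal array was the lowest for 36.0% of 3462 probe sets above the floor on all arrays, the largest share of the 4 arrays.

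Akt2 D30041_at read 101.5 in terminal heart failure, 28.1 in losartan-treated dTGR and 140.1 in dTGR, against 112.6 in SD control. Only the losartan array stood apart, just above the floor. It was 4.99-fold lower than dTGR (-2.32) and 4.01-fold lower than SD control (-2.00), while dTGR was 1.24-fold higher than SD control. Terminal heart failure differed from SD control by -0.15 as scaled here and by 0.01 after cyclic loess. Terminal heart failure, from the same chip lot as the losartan array, exceeded it 3.62-fold. The second probe set, rc_AI105076_s_at, read 36.6, 3.09 and 45.4, against 35.2 in SD control. The losartan array was the lowest and dTGR the highest here too, with the losartan array under the floor and at least 1.75-fold lower than dTGR and at least 1.35-fold lower than SD control. The losartan array also had the highest 3′ to 5′ ratio of Gapdh (2.17), and the part of this in the Akt2 value was not tested. Raising the floor to the 60th percentile left D30041_at on the losartan array a bound of -0.77 against SD control.

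**Figure D3:**
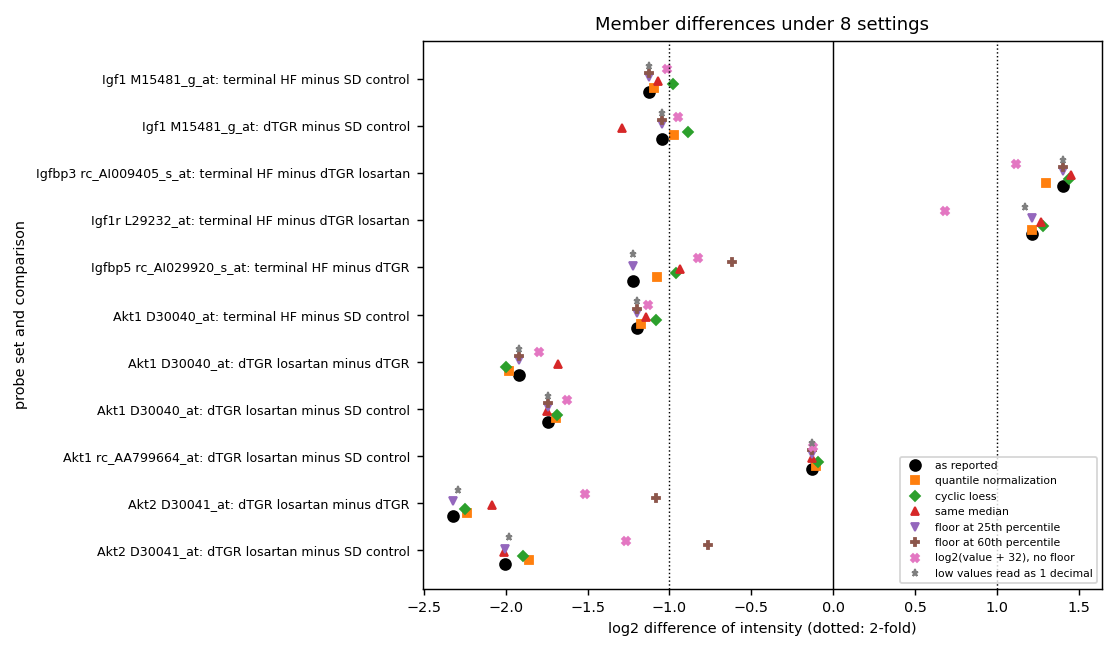
Log2 differences of intensity (horizontal axis, dotted lines at 2-fold) for 11 differences of the axis (down the page) as reported and under 7 other settings of scaling, floor and low values. Akt1 D30040_at stays beyond 2-fold lower in all 8, from -2.00 to -1.68 for losartan-treated dTGR against dTGR. For losartan-treated dTGR against SD control it runs from -1.75 to -1.63, and Akt1 rc_AA799664_at, shown for that comparison only, from -0.13 to -0.09.

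By the rule used for likeness, the genes nearest to a probe set were those with the smallest Euclidean distance between mean-centred log2 values over the 4 arrays, among 2584 genes above the floor on all of them. For Akt2 D30041_at they were Emp1, Pdcd2 and Rab7a, at distances of 0.43, 0.45 and 0.46. For Akt1 D30040_at they were Gja4, Atp4a and Pde3a, at distances of 0.22, 0.29 and 0.33. Likeness over 4 arrays is a description of these arrays.

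Counted over the axis, every probe set that differed 2-fold from SD control was lower than SD control, on each of the other 3 arrays, except with the floor at the 25th percentile, where 3 in dTGR, 2 in terminal heart failure and 1 in losartan-treated dTGR were higher. In dTGR 4 of 20 were lower by 2-fold and 0 higher, where 6.14% of all probe sets were lower and 7.98% higher. The 4 were M15481_g_at and M15481_at of Igf1, L29232_at of Igf1r and M31837_at of Igfbp3. Of 15 probe sets above the floor on both arrays, 10 were above SD control in dTGR, where 50.1% of all 3877 such probe sets were below it. With arrays scaled to the same median, 7 of the 15 were above it, and 67.1% of all were below. In terminal heart failure against SD control, 2 of 19 were lower and 0 higher (8.58% and 7.36% of all probe sets), 1 each of Igf1 and Akt1, a share near that of the array. In terminal heart failure against dTGR, 2 of 21 were higher and 2 lower (8.28% and 11.3% of all), again near the array's own share.

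Losartan-treated dTGR was set against both dTGR and SD control. Against dTGR, 3 of 21 probe sets were lower and 0 higher (10.4% and 5.79% of all), 1 each of Igfbp5, Akt1 and Akt2, a share near that of the array. The median over 13 probe sets above the floor on both arrays was -0.27, and -0.03 with arrays scaled to the same median. Against SD control, 5 of 18 were lower and 0 higher (6.15% and 2.73% of all), 1 each of Igf1, Igf1r, Igfbp5, Akt1 and Akt2. Of the 15 probe sets above the floor on both of these arrays, 14 were lower in losartan-treated dTGR, the exception being M17960_at of Igf2, and their median difference was -0.54. Over all 3894 such probe sets 52.2% were lower and the median was -0.02. The 15 hold several probe sets of the same gene, with 3 each for Igf1 and Igf2, so they are not 15 separate observations. After quantile normalization and after cyclic loess, 12 of the 15 were lower, with medians of -0.39 and -0.43. Of the 13 probe sets above the floor on all arrays, 7 had their lowest value on the losartan array, against 23.3% of 3462 such probe sets. Between terminal heart failure and losartan-treated dTGR, 4 of 20 were higher in the terminal array and 0 lower (8.94% and 6.8% of all), 1 each of Igf2, Igf1r, Igfbp3 and Akt2. These comparisons share arrays, so a low value on the losartan array enters 3 of them.

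Other genes of the pathway were taken from 6 lists that hold 77 genes, of which 50 had a named probe set, and the brightest probe set on average stood for each gene. Their counts stayed near or under the background. In dTGR against SD control 2 of 45 genes that could be counted were higher by 2-fold and 3 lower, where 13.6% of all genes passed 2-fold in either direction. The counts were 3 higher and 3 lower of 43 in terminal heart failure against SD control (14.8% of all), and 4 and 4 of 45 against dTGR (19.5% of all). In losartan-treated dTGR they were 1 higher and 2 lower of 43 against dTGR (15.4% of all), and 0 and 0 of 43 against SD control (7.1% of all). Terminal heart failure against losartan-treated dTGR gave 3 and 4 of 42 (14.8% of all). The median log2 difference over the pathway genes lay between -0.19 and 0.05, against -0.18 to 0.03 over all genes.

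Among the receptors, Insr, the insulin receptor, read 28.1 in terminal heart failure, 21.1 in losartan-treated dTGR and 77.0 in dTGR, against 47.0 in SD control. It was 2.74-fold lower in terminal heart failure than in dTGR and at least 2.96-fold lower in losartan-treated dTGR than in dTGR. With the floor at the 60th percentile both differences shrank to -0.22 on the log2 scale, and log2(value + 32) put the first at -0.86. Igf2r, which clears IGF2, stayed between 316.5 and 372.8 on all arrays, and Insrr, an orphan relative of the insulin receptor, between 222.1 and 271.4.

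Next to the receptor, Grb14, an adaptor that inhibits insulin signalling, read 282.6 in terminal heart failure, 839.5 in losartan-treated dTGR and 521.5 in dTGR, against 576.3 in SD control. It was 2.97-fold lower in terminal heart failure than in losartan-treated dTGR. Socs3, a feedback inhibitor of cytokine and insulin signalling, read 148.5 in terminal heart failure, against 31.0 in SD control, 4.79-fold higher, and was under the floor on both dTGR arrays. Sos1, the exchange factor of Ras, was 2.07-fold lower in dTGR than in SD control (146.1 against 302.5), although its other probe set gave -0.36. Quantile normalization put the first at -0.98. Socs2, an inhibitor of growth hormone signalling, was at least 2.02-fold higher in dTGR than in SD control, but short of 2-fold after cyclic loess (0.85 on the log2 scale). Ptpn1, a phosphatase of the receptor, was 1.97-fold higher in terminal heart failure than in dTGR by its brightest probe set. M33962_at, rc_AI113289_s_at and rc_AI180145_s_at were higher there too, by 0.23, 0.82 and 0.88 on the log2 scale. Only rc_AI112391_s_at was lower, with a log2 difference of -1.11.

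Of the phosphoinositide 3-kinase step, Pdpk1, the kinase that phosphorylates Akt, read 100.5 in terminal heart failure, 66.7 in losartan-treated dTGR and 37.9 in dTGR, against 61.7 in SD control. It was 2.65-fold higher in terminal heart failure than in dTGR, but short of 2-fold with the floor at the 60th percentile (0.60 on the log2 scale) and with log2(value + 32) (0.92). Pik3r1, the regulatory subunit, was at least 2.63-fold higher in the same comparison, but its other probe set differed by -0.82. Inpp5d, a lipid phosphatase of blood cells, was at least 2.54-fold lower in both terminal heart failure and losartan-treated dTGR than in dTGR.

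Downstream of Akt, Slc2a4, the insulin-responsive glucose transporter, read 265.9 in terminal heart failure, 838.9 in losartan-treated dTGR and 723.9 in dTGR, against 1152 in SD control, and both of its probe sets were more than 2-fold lower in terminal heart failure than in each of the other groups. Eif4ebp1, a brake on translation released by mTOR, read 1003 in terminal heart failure, 356.7 in losartan-treated dTGR and 450.3 in dTGR, against 439.3 in SD control. It was 2.28-fold higher in terminal heart failure than in SD control, and U05014_at was higher there too, by 1.68 on the log2 scale, while the probe set rc_AI178828_i_at differed by -0.34. In dTGR against SD control the probe sets disagreed. There rc_AI178828_i_at read 84.4 against 538.3, a log2 difference of -2.67, while U05014_at differed by 0.85.

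Gsk3b, a kinase that Akt inhibits, was 2.03-fold higher in terminal heart failure than in SD control (149.0 against 73.4), and its other probe set gave 1.20 on the log2 scale. Mtor, the growth kinase of the pathway, read 133.4 in terminal heart failure, 312.6 in losartan-treated dTGR and 107.1 in dTGR, against 229.4 in SD control, so that both untreated disease arrays were lower than the losartan and SD control arrays. It was 2.92-fold higher in losartan-treated dTGR than in dTGR and 2.14-fold lower in dTGR than in SD control, the second being -0.96 after cyclic loess. Foxo1, a transcription factor that Akt excludes from the nucleus, was 2.13-fold higher in dTGR than in SD control (106.2 against 49.9), and short of 2-fold with arrays scaled to the same median (0.85 on the log2 scale). The probe sets of Rps6kb1, the S6 kinase, disagreed between terminal heart failure and dTGR, with log2 differences of -1.20 and 1.12. Pfkfb2, a heart enzyme of glycolytic control that Akt phosphorylates, was under the floor in terminal heart failure and at least 2.17-fold lower there than in SD control. Eif2b5, a subunit of a translation initiation factor, spanned 1.96-fold with no 2-fold difference.

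**Figure D4:**
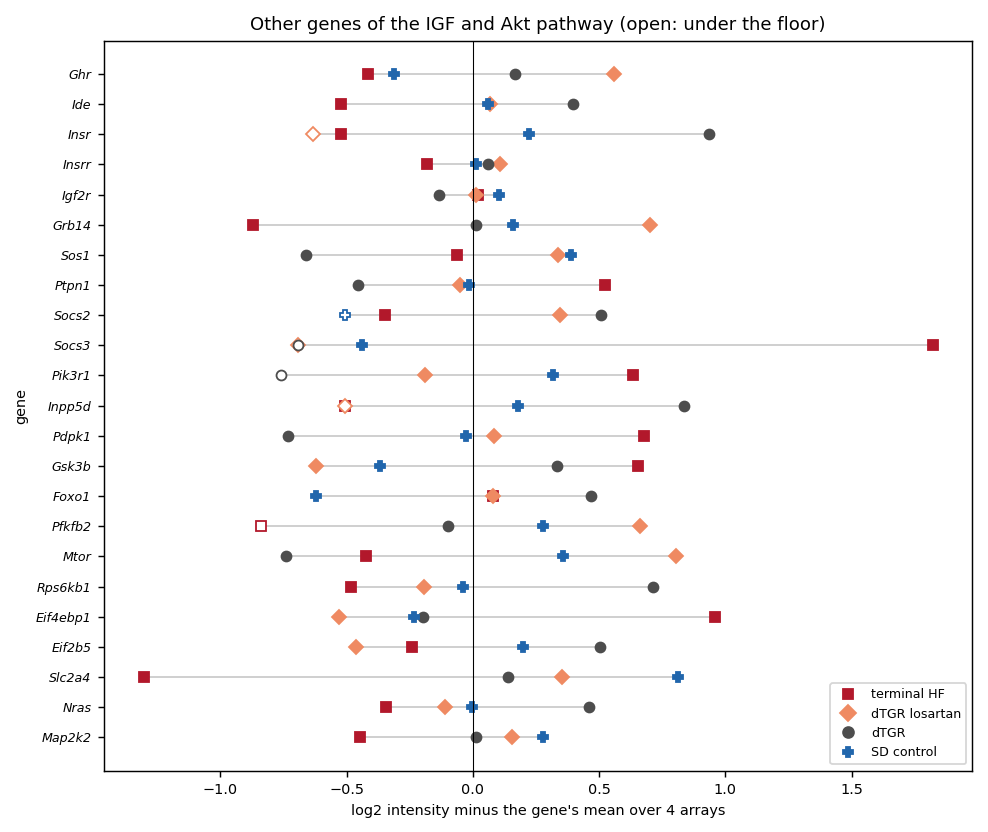
Log2 intensity of 23 other pathway genes minus each gene's mean over the 4 arrays (horizontal axis), 1 row per gene and 1 symbol per array, open where the value is under the floor. Socs3 and Eif4ebp1 stand apart on the terminal array to the right, and Slc2a4 and Grb14 to the left.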

How the data were processed

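Total RNA of the rat left ventricle was hybridised to 4 Affymetrix rat arrays, 1 per group. The authors deposited 1 intensity per probe set and array for 8799 probe sets, already on a common scale judged by the values. The sources used here name no software or version and hold no detection calls. Of 15281 deposited intensities from 1 to under 32, 13625 have a form as if a spreadsheet had rewritten them as day and month.

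Arrays were brought to 1 trimmed mean, the average of all 4 (2% left out at each end), floored at 26.0 (the 40th percentile) and put on a log2 scale. After 59 controls, 1426 probe sets with no symbol and 308 with several were left out, 7006 remained. Symbols come from the platform annotation of GEO, and the identifiers of 26 of 26 member probe sets matched RefSeq symbols. The call rule was checked on a simulated pair of arrays copied from the SD control array. Only bright probe sets were changed there, and the simulated error was smaller than the SD between probe sets of a gene. The check therefore does not cover calls near the floor. Chip lot, run day and fluidics protocol were read from the instrument records. Alternatives were quantile normalization, cyclic loess (limma 3.58.1 in R 4.3.3), scaling to the same median, floors at the 25th and 60th percentile, log2(value + 32), a 1.5-fold threshold, and for pathway genes the median over each gene's probe sets. Low values read with 1 decimal were added after seeing the data. Scripts used Python 3.11.15 and pandas 2.3.3.

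The genes, lists, thresholds and comparisons were chosen with earlier results of these data known. Pathway genes were named when at least 2-fold different and above the floor on both arrays of a comparison, with up to 2 further genes per list of the largest range over the arrays. For the 2 genes of the axis with the largest range among probe sets above the floor on all arrays, the 3 nearest genes were named. Promoter sequences are those of RefSeq, build GRCr8.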

Additional observations from a re-analysis of the deposited data

How the results depend on the processing

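Of 22 differences of the axis that passed 2-fold, 18 stayed past it under all 3 other scalings (quantile, cyclic loess, same median), and 7 under every alternative that gave a value. The 4 lost under a scaling were M15481_g_at of Igf1 in dTGR and in terminal heart failure (-0.98 after cyclic loess) against SD control, L29232_at of Igf1r in losartan-treated dTGR against SD control (-0.991 and -0.999 after quantile normalization and cyclic loess), and rc_AI029920_s_at of Igfbp5 in terminal heart failure against dTGR. Over 255 single differences and 1714 values under 7 alternatives, none of those past 2-fold changed sign and 58 values moved by more than the SD between probe sets of a gene, 30 with the floor at the 25th percentile, 18 at the 60th and 10 with log2(value + 32). Among smaller differences, of at most 0.31 on the log2 scale, 31 values of 23 differences lay on the other side of 0, all under another scaling, Akt1 in dTGR against SD control among them. Scaling to the same median moved the median of all probe sets to -0.24 in dTGR against SD control, to 0.16 in terminal heart failure and to 0.20 in losartan-treated dTGR against dTGR. Values near the floor limit most of these, and for other shifts the cause was not tested.

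Counts of probe sets of the axis moved as follows. In dTGR against SD control the count of 4 became 3 after quantile normalization and 3 after cyclic loess. It became 7 with the floor at the 25th percentile (3 higher, 4 lower), 1 at the 60th, 0 with log2(value + 32) and 7 at 1.5-fold (2 higher, 5 lower). In terminal heart failure against SD control the count of 2 became 1 after cyclic loess, 4 with the lower floor (2 higher, 2 lower) and 6 at 1.5-fold (2 higher, 4 lower). Against dTGR the count of 4 became 7 with the lower floor (2 higher, 5 lower), 1 with the higher and 2 with log2(value + 32). From that count rc_AI029920_s_at of Igfbp5 was lost after cyclic loess and with the same median. In losartan-treated dTGR against dTGR the count of 3 became 7 with the lower floor, 5 with log2(value + 32) and 9 at 1.5-fold (1 higher, 8 lower). Against SD control the count of 5 became 1 with the higher floor and 3 with log2(value + 32). From the count against SD control L29232_at of Igf1r was lost after quantile normalization and after cyclic loess. For terminal heart failure against losartan-treated dTGR the count of 4 became 8 with the lower floor (7 higher, 1 lower), 2 with the higher, 2 with log2(value + 32) and 8 at 1.5-fold.

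Counts of pathway genes moved likewise. In dTGR against SD control 5 became 3 after quantile normalization, 2 after cyclic loess, 3 with the same median, 8 and 2 with the lower and higher floor, 0 with log2(value + 32) and 13 at 1.5-fold. In terminal heart failure 6 became 14 at 1.5-fold against SD control, and 8 became 4 with the higher floor, 5 with log2(value + 32) and 20 at 1.5-fold against dTGR. In losartan-treated dTGR against dTGR 3 became 6 after quantile normalization, 5 with the same median, 7 and 1 with the lower and higher floor and 14 at 1.5-fold, and against SD control 0 became 2 with the lower floor and 7 at 1.5-fold. Between terminal heart failure and losartan-treated dTGR 7 became 17 at 1.5-fold. No paired analysis was possible because each group has 1 array.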

Other observations

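Around the ligands, Igfals, the subunit that keeps IGF and its binding protein in a long-lived complex in blood, was lowest in terminal heart failure on all 3 of its probe sets. It is named here after its values were seen. S46785_at read 100.01 in terminal heart failure, 130.3 in losartan-treated dTGR and 145.3 in dTGR, against 136.3 in SD control. S46785_g_at, from the same record, read 67.6, 86.8 and 138.4, against 95.5 in SD control, and rc_AA924289_s_at read 21.0, 60.2 and 92.6, against 46.0. On all 3 the dTGR array was the highest. The differences of terminal heart failure from dTGR were -0.54, -1.03 and a bound of -1.83 on the log2 scale.

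Ghr, the growth hormone receptor, read 277.6 in terminal heart failure, 544.6 in losartan-treated dTGR and 415.6 in dTGR, against 298.3 in SD control by its brightest probe set, and the second gave 91.8, 180.1 and 167.1, against 211.4. Both were lower in terminal heart failure than in losartan-treated dTGR by a difference of -0.97 on the log2 scale. Ide, a protease that degrades insulin, had no 2-fold difference. Its brightest probe set was lowest in terminal heart failure (67.6) and highest in dTGR (127.6), while the other had 58.1 in terminal heart failure and 34.3 in dTGR, the opposite order. Igfbp1, a binding protein made by the liver, was under the floor on all arrays. In the Ras branch the brightest probe sets of Nras and Map2k2 were lowest in terminal heart failure (144.0 and 675.0), but rc_AA943331_s_at of Nras was highest there (67.8) and L14936_at of Map2k2 was lowest in losartan-treated dTGR (234.2). Another Map2k2 probe set, rc_AA957896_s_at, was lower in terminal heart failure than in dTGR by a log2 difference of -1.003.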
